A study of Homo sapiens with 25 samples.

Results

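Adding MC_2580, which inhibits the demethylase LSD1 (KDM1A), to a low dose of retinoic acid (RA) was followed in NB4 cells by setting the MC_2580 + RA 0.01 µM libraries directly against the RA 0.01 µM libraries. NB4 is a human cell line established from acute promyelocytic leukemia, and it differentiates in response to RA. The comparison takes 8 of the 25 samples of the series, found by the treatment and antibody labels: chromatin immunoprecipitation with sequencing (ChIP-seq) for H3K4me1, H3K4me2, H3K4me3 and H3K27ac in each of the 2 treatments, after 24 h. The MC_2580 + RA 0.01 µM group is called the combination below, and all groups come from the same line. Beside them stand the same 4 marks with MC_2580 alone, RA 1 µM and DMSO, an LSD1 list from DMSO-treated and one from MC_2580-treated cells, and a GFI1 list from untreated cells. The sources used here give no dose for MC_2580.

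LSD1 removes methyl groups from mono- and dimethylated lysine 4 of histone H3 and also serves as a scaffold of corepressor complexes. GFI1 is a DNA-binding repressor of myeloid cells whose SNAG domain recruits LSD1, and LSD1 inhibitors can release LSD1 from it. H3K4me3 is mainly a mark of promoters, H3K4me1 and H3K4me2 are also found at enhancers, and H3K27ac accompanies activity at either.

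Each antibody and treatment had 1 library, so no difference can be set against a replicate spread and no p-value is given. The values describe these libraries, and the 95% exact binomial intervals given in parentheses cover counting error only. A peak is counted as found only in 1 list when it shares no base with any peak of the other list. In cultured cells, more cells carrying a mark and more of the mark per cell cannot be told apart. The peak score is the authors' value on the scale of -10 times log10 of the caller's p-value. It starts at 50 in the histone lists and piles up at 3100, and it ranks peaks only within a list. Positions are those of the hg18 build, for which no gene annotation was used, so regions are given by position and the line was not checked against marker genes. No sequence is shown, since a genome of that build was not used here.

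The libraries differed in ways that touch the counts. Read depth is unknown. Of the H3K4me1 peaks, 4.21% reached a score of 3100 in the combination and 0.201% with RA 0.01 µM, while for H3K4me3 the shares were 23.6% and 36.1%. The H3K27ac library of RA 0.01 µM stood apart: 60.7% of its peaks lay on an H3K4me1 peak of any of the 5 treatments, against 83.1% in the combination and 84.6 to 90.6% in the other 3. For H3K27ac, the ratio of differing peaks and their LSD1 and GFI1 shares are therefore also given for peaks on H3K4me1, and the other H3K27ac values cover all peaks. For the H3K4me3 library of the combination, the treatment field gives RA at 0.01 µM but the title gives 1 µM, and no second H3K4me3 library of the combination could be set beside it.

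The first question was which marked regions were called in the combination and not with RA 0.01 µM alone, and which the other way. H3K4me1 and H3K4me2 peaks were found more often only in the combination, and H3K4me3 and H3K27ac peaks more often only with RA 0.01 µM. For H3K4me1, 19301 of 72810 combination peaks had no counterpart with RA 0.01 µM, which is 26.5% (26.2 to 26.8%), and 2466 of 60844 RA 0.01 µM peaks had none in the combination, 4.05% (3.90 to 4.21%). For H3K4me2 the counts were 9992 of 45463 in the combination, 22.0% (21.6 to 22.4%), and 2761 of 39302 with RA 0.01 µM, 7.03% (6.77 to 7.28%). The log2 ratio of combination-only to RA 0.01-only peaks was 2.97 for H3K4me1 and 1.86 for H3K4me2. These ratios depend on list length and on the overlap rule: with lists of equal length they were 1.06 and 0.49, and with a 50% reciprocal overlap 0.90 and 0.77.

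H3K4me3 had 2942 combination-only peaks of 26963, 10.9% (10.5 to 11.3%), and 4677 RA 0.01-only peaks of 27712, 16.9% (16.4 to 17.3%), a log2 ratio of -0.67. H3K27ac had 9433 combination-only peaks of 41191, 22.9% (22.5 to 23.3%), and 24839 RA 0.01-only peaks of 55793, 44.5% (44.1 to 44.9%), a log2 ratio of -1.40. With lists of equal length the ratios were -0.40 for H3K4me3 and -0.18 for H3K27ac, and with a 50% reciprocal overlap -0.19 and -0.82. The H3K27ac excess of RA 0.01 µM lay off H3K4me1: on an H3K4me1 peak of either treatment there were 7327 combination-only and 6103 RA 0.01-only peaks, a log2 ratio of 0.26. Its direction thus depends on whether peaks outside H3K4me1 are counted. These percentages are the background against which the sites described further on are read.

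**Figure D1:**
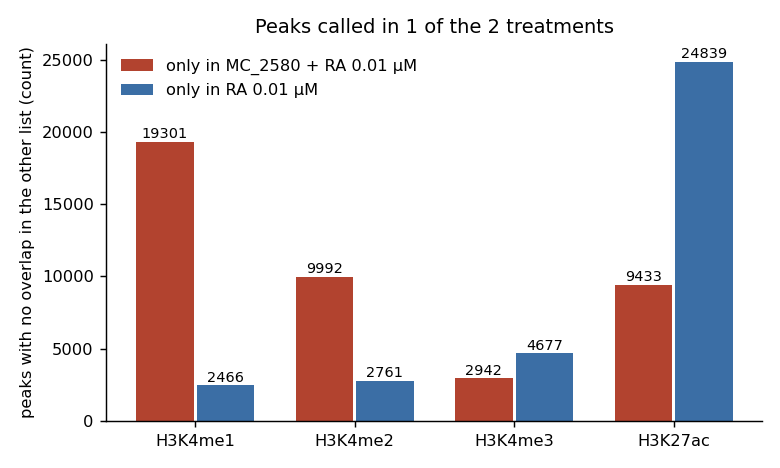
Number of peaks with no base in common with a peak of the other treatment, for each mark, with MC_2580 + RA 0.01 µM in red and RA 0.01 µM in blue (1 library each, no error bars). The combination has the larger bar for H3K4me1 (19301 against 2466) and H3K4me2 (9992 against 2761), and RA 0.01 µM for H3K4me3 (2942 against 4677) and H3K27ac (9433 against 24839).

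Covered bases followed the same order. H3K4me1 covered 211 Mb in the combination and 161 Mb with RA 0.01 µM, a ratio of 1.31, and H3K4me2 61.4 and 53.3 Mb, a ratio of 1.15. H3K4me3 covered 84.3 Mb in the combination and 95.8 Mb with RA 0.01 µM (0.880), and H3K27ac 149 and 199 Mb (0.748). The Jaccard index, the bases covered in both lists over those covered in either, was 0.695 for H3K4me1, 0.750 for H3K4me2, 0.739 for H3K4me3 and 0.471 for H3K27ac. H3K27ac was thus the mark whose lists shared the smallest part of their bases.

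Peaks found in 1 list only were weak and narrow within that list. Their median score was 93.6 for H3K4me1 in the combination, against 504 for the combination's shared peaks, and 61.6 with RA 0.01 µM, against 189 for its shared peaks. The corresponding medians for H3K27ac were 87.2 and 344 in the combination, and 87.0 and 453 with RA 0.01 µM. In each list only a small part of the differing peaks reached a score of 500: 1.43% of the combination-only H3K4me1 peaks, where 50.3% of the combination's shared peaks did, and 0.284% of the RA 0.01-only ones, where 19.4% of the shared peaks did. For H3K4me3 the shares were 0.510% of combination-only and 51.5% of shared peaks in the combination, and 0.0428% and 62.2% with RA 0.01 µM. H3K27ac had the most such peaks, 6.16% of its combination-only and 1.55% of its RA 0.01-only peaks, beside 43.7% and 47.9% of the shared peaks of each list. The differing peaks thus came mostly from the weak end of their own lists.

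Many differing peaks lay close to a peak of the other list. Within 5 kb of one lay 46.4% of the combination-only and 50.6% of the RA 0.01-only H3K4me1 peaks, and 54.4% and 66.9% of the H3K4me2 peaks. For H3K4me3 the shares were 29.1% in the combination and 28.8% with RA 0.01 µM, and for H3K27ac 43.3% and 35.8%. More than 20 kb from any peak of the other list were 39.3% of combination-only and 43.4% of RA 0.01-only H3K4me3 peaks. H3K4me3 was the mark whose differing peaks most often stood alone at that distance, in both directions. Its lists were also the shortest of the 4 marks, with 26963 peaks in the combination and 27712 with RA 0.01 µM. The part of list length in these distances was not tested.

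Shared peaks were compared in width where each overlapped a single peak of the other list. H3K4me1 peaks were wider in the combination, with a median width of 2369 bases against 1945 with RA 0.01 µM over 43926 pairs, and a median ratio within pairs of 1.15. Of these pairs, 78.8% were wider in the combination. H3K4me2 had a median ratio of 1.06 over 26619 pairs, with 67.1% wider in the combination. H3K4me3 peaks were narrower there, with medians of 2714 bases in the combination and 2967 with RA 0.01 µM, a ratio of 0.918 over 21206 pairs and 25.8% wider in the combination. H3K27ac had a ratio of 0.966 over 22307 pairs, and its ratios spread most, from a 5th percentile of 0.388 to a 95th of 1.90.

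LSD1 and GFI1 at the differing peaks were examined next. Neither list had been used to choose the peaks, and both come from cells without RA. In every mark, combination-only peaks overlapped LSD1 and GFI1 more often than RA 0.01-only peaks did. For H3K4me3, 27.4% (25.8 to 29.1%) of combination-only and 6.35% (5.67 to 7.09%) of RA 0.01-only peaks overlapped an LSD1 peak of the DMSO list, a difference of 21.1 percentage points, and 30.0% (28.4 to 31.7%) and 6.50% (5.81 to 7.24%) overlapped GFI1. Shared H3K4me3 peaks of the combination had LSD1 in 33.5% and GFI1 in 31.5% of cases. In the other marks, too, combination-only peaks carried LSD1 less often than shared peaks of the combination, which had it in 22.1% for H3K4me1, 32.2% for H3K4me2 and 26.1% for H3K27ac.

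For H3K27ac, LSD1 overlapped 11.9% (11.3 to 12.6%) of combination-only and 1.91% (1.75 to 2.09%) of RA 0.01-only peaks, and GFI1 19.7% (18.9 to 20.5%) and 4.03% (3.79 to 4.28%). On H3K4me1 of either treatment the LSD1 shares were 15.5% and 7.18% and the GFI1 shares 24.6% and 8.93%, so the combination-only shares were the higher ones there as well. For H3K4me2, LSD1 overlapped 22.2% (21.4 to 23.0%) of combination-only and 8.87% (7.84 to 10.0%) of RA 0.01-only peaks, and GFI1 19.4% and 6.01%. H3K4me1 had the lowest shares, 3.36% and 0.487% for LSD1 and 8.43% and 1.91% for GFI1. The direction of the H3K4me1 difference depended on how overlap was counted: a 50% reciprocal overlap turned it to -10.4 percentage points for LSD1 and -4.76 for GFI1, and cutting each peak to its central part, 500 bases to each side of the midpoint, to -12.8 and -5.77. The H3K4me2 difference for LSD1 was likewise -1.10 percentage points with a 50% reciprocal overlap, with an interval of -2.26 to 0.0646.

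**Figure D2:**
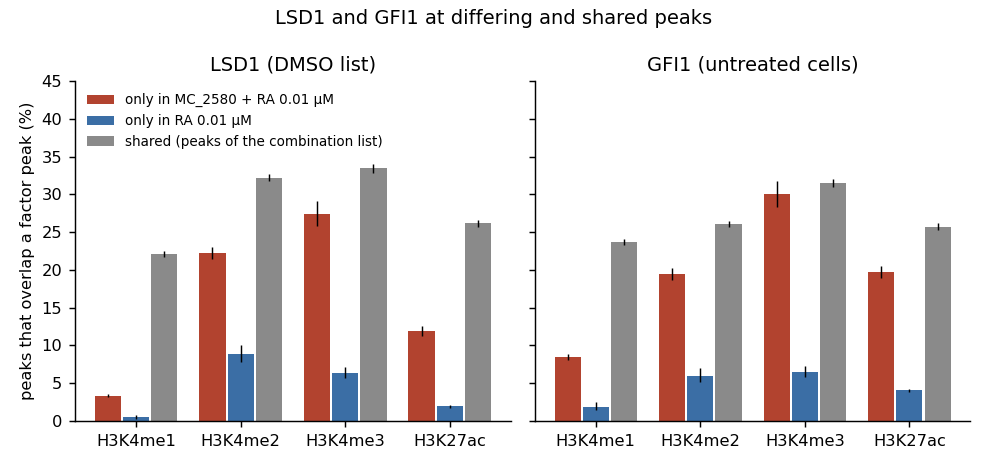
Share of peaks (%) that overlap an LSD1 peak of the DMSO list (left) or a GFI1 peak of untreated cells (right), for peaks found only in MC_2580 + RA 0.01 µM (red), only in RA 0.01 µM (blue) and shared peaks of the combination list (grey), with 95% exact binomial intervals as bars. Red stands above blue in all 8 pairs, and the gap in percentage points is widest for H3K4me3 (27.4% against 6.35% for LSD1).

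Factor overlap was higher among wide peaks, so the shares were also taken within 5 equal-sized classes of peak width. Combination-only H3K4me3 peaks of the widest class overlapped LSD1 in 48.2% and GFI1 in 59.3% of cases, against 10.0% and 11.8% of RA 0.01-only peaks of the same class. Widths were not matched within a class, and the widest ran from 1960 to 24759 bases for H3K4me3 and from 3022 to 87247 for H3K27ac. In the narrowest class the LSD1 shares were 12.4% in the combination and 2.48% with RA 0.01 µM. For H3K27ac the widest class had LSD1 at 29.5% of combination-only and 3.58% of RA 0.01-only peaks, and the narrowest 3.51% and 0.862%. For H3K4me2 the LSD1 shares were 35.1% and 13.0% in the widest class and 14.5% and 6.80% in the narrowest. The combination-only share was the higher one in all 5 classes of each mark, for LSD1 of the DMSO list and for GFI1.

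Seen from the factor sites, H3K27ac and H3K4me3 leaned to the combination most where LSD1 and GFI1 were both called, while H3K4me1 and H3K4me2 leaned to it at every kind of site. The DMSO list held 12562 LSD1 peaks, of which 7134 (56.8%) overlapped GFI1 and 5428 did not. At LSD1 sites with GFI1, H3K27ac was called only in the combination at 1004 sites, 14.1% (13.3 to 14.9%), and only with RA 0.01 µM at 190, 2.66% (2.30 to 3.06%). At LSD1 sites without GFI1 the counts were 302, 5.56% (4.97 to 6.21%), and 312, 5.75% (5.14 to 6.40%). The ratio of combination-only to RA 0.01-only sites was therefore 5.28 with GFI1 and 0.968 without it.

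H3K4me3 showed the same contrast. At LSD1 sites with GFI1 it was called only in the combination at 592 sites, 8.30% (7.67 to 8.96%), and only with RA 0.01 µM at 153, 2.14% (1.82 to 2.51%). Without GFI1 the counts were 210, 3.87% (3.37 to 4.42%), and 172, 3.17% (2.72 to 3.67%). In both marks the sites with LSD1 and GFI1 leaned to the combination, while the full lists leaned to RA 0.01 µM. For H3K27ac, peaks on H3K4me1 leaned to the combination as well, with 7327 combination-only and 6103 RA 0.01-only peaks. These are the closer background, as 98.6% of the sites with LSD1 and GFI1 had H3K4me1 in the combination and 94.1% with RA 0.01 µM. H3K4me2 leaned to the combination at both kinds of site, more so with GFI1, where 794 sites (11.1%) had it only in the combination and 46 (0.645%) only with RA 0.01 µM, than without, where 390 (7.18%) and 56 (1.03%) did. H3K4me1 was called in both treatments at 93.4% of all LSD1 sites, and its lean to the combination was not larger with GFI1. It was combination-only at 328 and RA 0.01-only at 9 sites with GFI1, a ratio of 36.4, and at 218 and 4 without, a ratio of 54.5 that rests on few RA 0.01-only sites.

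At GFI1 sites without LSD1 the lean to the combination was weak in H3K27ac and not seen in H3K4me3. Of 17655 GFI1 peaks that overlapped no LSD1 peak of either list, 8.21% (7.81 to 8.62%) had H3K27ac only in the combination and 7.22% (6.84 to 7.61%) only with RA 0.01 µM, a ratio of 1.14. For H3K4me3 these shares were 1.65% (1.47 to 1.85%) and 1.85% (1.65 to 2.06%), whose intervals overlap. H3K4me1 and H3K4me2 leaned to the combination there, with 1700 combination-only and 85 RA 0.01-only sites for H3K4me1 and 603 and 111 for H3K4me2. The direction was that of the full lists, and the log2 ratios were larger, at 4.32 and 2.44 of sites against 2.97 and 1.86 of peaks. The context of these sites differed too: 61.1% had H3K4me1 in neither treatment, against 1.29% of LSD1 sites with GFI1. RA 0.01-only H3K27ac peaks lay mostly off H3K4me1, and the part of this in the H3K27ac ratio was not tested.

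**Figure D3:**
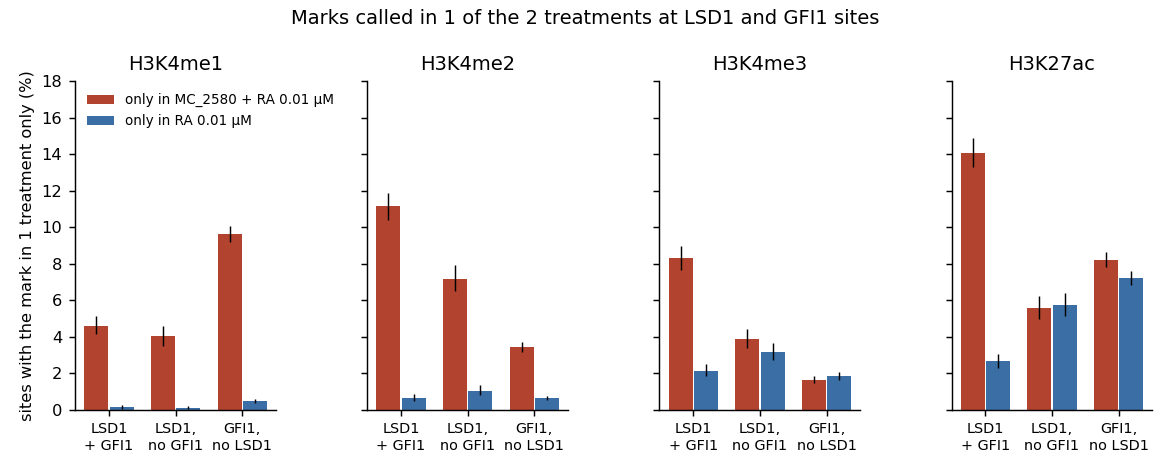
Share of sites (%) at which a mark was called only with MC_2580 + RA 0.01 µM (red) or only with RA 0.01 µM (blue), at LSD1 sites with GFI1 (7134), LSD1 sites without GFI1 (5428) and GFI1 sites without LSD1 (17655), 1 panel per mark, with 95% exact binomial intervals. For H3K27ac red stands at 14.1% and blue at 2.66% where both factors were called, against 5.56% and 5.75% at LSD1 sites without GFI1 and 8.21% and 7.22% at GFI1 sites without LSD1.

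Strength of LSD1 binding moved with GFI1: of 4 equal-sized classes of LSD1 score, the highest held 2529 sites with GFI1 and 612 without, and the lowest 1244 and 1897. Within these classes, a split chosen after the values were seen, H3K27ac at sites with GFI1 was combination-only at 13.4, 13.1, 12.7 and 16.0% from the lowest to the highest class and RA 0.01-only at 3.22, 3.04, 2.82 and 2.06%. At sites without GFI1 the combination-only shares were 6.43, 6.72, 4.71 and 1.63% and the RA 0.01-only shares 7.01, 5.24, 4.71 and 5.39%. The contrast was thus present at every level of LSD1 score, and the strongest LSD1 sites without GFI1 leaned to RA 0.01 µM, with 10 combination-only and 33 RA 0.01-only sites. With each LSD1 site cut to 500 bases on either side of its centre, the H3K27ac ratios were 5.78 with GFI1 and 1.03 without.

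The sites were then divided by H3K4me3, which stands here for promoters by mark and not by gene position. Where H3K4me3 was called in neither treatment, 1571 LSD1 sites had GFI1 and 1461 did not. With GFI1, H3K4me2 was called only in the combination at 390 of these (24.8%) and only with RA 0.01 µM at 17 (1.08%), and H3K27ac at 345 (22.0%) and 87 (5.54%). H3K4me1 was combination-only at 267 of them (17.0%) and RA 0.01-only at 2. Without GFI1, H3K27ac at such sites leaned the other way, with 119 combination-only (8.15%) and 186 RA 0.01-only sites (12.7%). Where H3K4me3 was called in at least 1 treatment, H3K27ac was combination-only at 11.8% and RA 0.01-only at 1.85% of the 5563 sites with GFI1, and at 4.61% and 3.18% of the 3967 without. LSD1 sites with GFI1 and without H3K4me3 were thus, of these 4 kinds of site, the ones where H3K4me1, H3K4me2 and H3K27ac were most often found only in the combination. Fewer of them had the mark in both treatments than sites with GFI1 and H3K4me3, at 25.5% against 88.4% for H3K4me2 and 33.1% against 81.0% for H3K27ac. The ratio of combination-only to RA 0.01-only sites was lower there for H3K27ac, 3.97 against 6.40. It was higher for H3K4me2, 22.9 against 13.9, and for H3K4me1, 133.5 against 8.71.

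Widths of shared H3K27ac and H3K4me3 peaks followed the same order of sites. The median H3K27ac width ratio, combination over RA 0.01 µM, was 1.05 (1.04 to 1.06) at 3255 pairs with LSD1 and GFI1, 0.977 with LSD1 alone, 1.01 with GFI1 alone and 0.928 (0.922 to 0.933) at 14222 pairs with neither. At the pairs with both factors the median width was 4341 bases in the combination and 3795 with RA 0.01 µM. For H3K4me3 the ratios were 0.959 with both factors and 0.897 with neither. H3K4me1 ratios were close to each other at all 4 kinds of site, from 1.14 to 1.16.

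**Figure D4:**
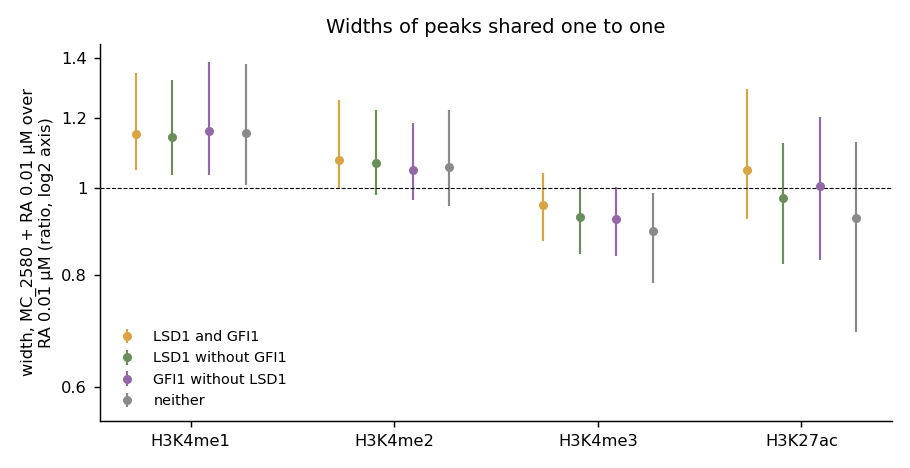
Width of peaks in MC_2580 + RA 0.01 µM over their width in RA 0.01 µM, for peaks that each overlap a single peak of the other list, by mark and by the factors at the pair. Points are medians and lines run from the 25th to the 75th percentile on a log2 axis. For H3K27ac the median is 1.05 with LSD1 and GFI1 and 0.928 with neither.

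The differing peaks were also looked up in the other 3 treatments, without taking any of them as a baseline. Combination-only H3K4me3 peaks were called with MC_2580 alone in 56.4% of cases, with RA 1 µM in 22.0% and in DMSO in 10.3%, and 36.4% of them were called in none of the 3. RA 0.01-only H3K4me3 peaks were called with MC_2580 in 52.5%, with RA 1 µM in 41.8% and in DMSO in 15.4%. Combination-only H3K4me2 peaks were called with MC_2580 in 54.7%, with RA 1 µM in 42.2% and in DMSO in 32.7%. The MC_2580 list was the longest of the 3 for both marks, with 50736 H3K4me2 and 29872 H3K4me3 peaks, and also held the most shared peaks of the combination, 93.9% and 94.8%. RA 0.01-only H3K4me2 peaks were found there in 49.3% of cases.

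For H3K27ac, combination-only peaks were found again with RA 1 µM in 45.4%, with MC_2580 in 25.9% and in DMSO in 30.5% of cases, the same order as among shared peaks of the combination (84.5, 59.6 and 72.6%) and as the list lengths (38808, 24552 and 32789 peaks). Of the combination-only peaks, 42.0% (41.0 to 43.0%) were called in none of the 3. Of the 24839 RA 0.01-only H3K27ac peaks, 76.8% (76.2 to 77.3%) were called in none of the other 3 treatments, 14.1% with RA 1 µM, 12.7% in DMSO and 5.51% with MC_2580. The RA 0.01-only H3K27ac peaks were thus mostly calls of a single library. Of combination-only H3K4me1 peaks, 43.5% were called with MC_2580, 39.6% with RA 1 µM and 44.0% in DMSO, and 33.3% in none. RA 1 µM had the lowest of these shares, although its list was the longest (64642 peaks, against 54181 with MC_2580 and 57630 in DMSO). Among shared H3K4me1 peaks of the combination it had the highest, 94.4%, against 88.5% with MC_2580 and 90.4% in DMSO.

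Differing peaks with LSD1 and GFI1 were found again with MC_2580 more often than those with neither, in both directions. In combination-only H3K4me3 peaks the shares were 81.6% (78.2 to 84.7%) of 577 peaks with both factors and 46.9% (44.5 to 49.2%) of 1829 with neither. With RA 1 µM the order was the other way, 13.0% (10.4 to 16.0%) and 25.5% (23.5 to 27.6%). H3K4me2 gave 81.4% of 1149 peaks and 46.8% of 6984 for MC_2580, and 27.9% and 45.5% for RA 1 µM. In H3K27ac, 66.1% (62.8 to 69.3%) of 847 peaks with both factors were called with MC_2580 and 18.5% (17.6 to 19.4%) of 7294 with neither, while for RA 1 µM the shares were 47.6% and 43.8%. RA 0.01-only peaks showed the MC_2580 contrast as well, with 77.6% against 50.6% for H3K4me3, 80.6% against 46.5% for H3K4me2 and 30.0% against 4.94% for H3K27ac. In DMSO, too, combination-only peaks with both factors were found again more often than those with neither, at 53.1% against 25.4% for H3K27ac, 16.5% against 8.04% for H3K4me3 and 43.3% against 29.7% for H3K4me2. The contrast was thus particular neither to MC_2580 nor to combination-only peaks. Peaks with both factors also had higher scores, with a median of 247 against 79.1 with neither for H3K27ac, and the part of score in these shares was not tested.

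**Figure D5:**
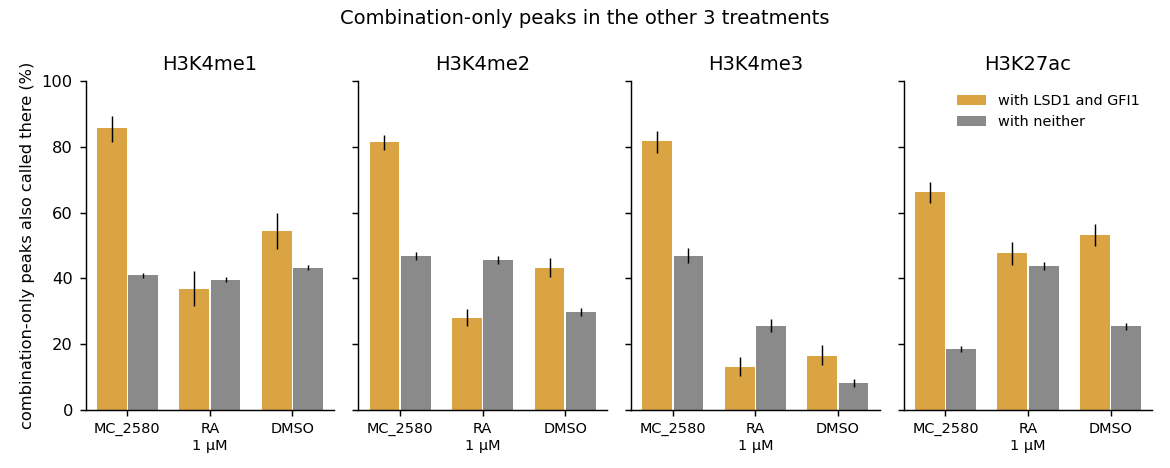
Share (%) of peaks found in MC_2580 + RA 0.01 µM and not in RA 0.01 µM that were also called with MC_2580, RA 1 µM or DMSO, for peaks with LSD1 and GFI1 (yellow) and with neither (grey), with 95% exact binomial intervals. For MC_2580 yellow stands above grey in every mark (66.1% against 18.5% for H3K27ac), as it does for DMSO, and for RA 1 µM grey stands above yellow in H3K4me1, H3K4me2 and H3K4me3.

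Marks that differed at the same place were counted after merging the 8 lists into 91704 regions. A single mark was combination-only in 24062 regions and RA 0.01-only in 29185. With 2 marks the counts were 2550 in the combination and 615 with RA 0.01 µM, with 3 marks 281 and 3, and with all 4 marks 18 and 0. The most common differing pattern was H3K27ac with RA 0.01 µM and no other mark in either treatment, in 18227 regions, of which 0.252% had LSD1. H3K4me1 in the combination and nothing else followed with 10250 regions, of which 1.79% had LSD1. LSD1 was more frequent where more marks differed: it was found at 6.08% of regions with 1 combination-only mark, 16.5% with 2, 42.0% (36.2 to 48.0%) with 3 and at 10 of the 18 with 4. The median width of these regions was 1637 bases with 1 mark, 2753 with 2, 3862 with 3 and 3363 with 4. LSD1 was also frequent where many marks were present without differing. It was found at 48.0% of the 13222 regions with all 4 marks called in both treatments. Of the 11413 regions with H3K4me1 in both and no other mark, 2.38% had it. The parts of width and of the number of marks present were not tested.

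Context differed between the directions too. Of combination-only H3K27ac peaks, 61.1% lay on H3K4me1 called in both treatments and 14.3% on H3K4me1 called only in the combination. Of RA 0.01-only H3K27ac peaks, 14.7% lay on H3K4me1 called in both and 76.7% on no H3K4me1 of either. Combination-only H3K4me3 peaks had H3K4me2 only in the combination in 18.3% and H3K27ac only in the combination in 20.3% of cases. RA 0.01-only H3K4me3 peaks had H3K4me2 only with RA 0.01 µM in 2.16% and H3K27ac only with RA 0.01 µM in 7.06%. Differences in several marks thus coincided more often among combination-only than among RA 0.01-only H3K4me3 peaks. The background was uneven too. At shared H3K4me3 peaks of the combination, H3K4me2 was combination-only in 3.06% and RA 0.01-only in 0.991%, and H3K27ac in 6.07% and 5.03%. H3K4me2 was called in neither treatment at 55.3% of combination-only and 68.1% of RA 0.01-only H3K4me3 peaks. The part of this background in the contrast was not tested.

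Single regions show what lies behind these counts. The highest-scoring combination-only H3K4me2 and H3K4me3 peaks, both scored 3100, overlapped each other on chromosome 6, from 37029277 to 37033222 and from 37028673 to 37034208. Neither mark was called there with RA 0.01 µM, and both were called with MC_2580. H3K4me2 was also called with RA 1 µM, at 119. H3K27ac was called in both treatments within the H3K4me2 peak, at a score of 1938 in the combination and of 53.2, near the floor of 50, with RA 0.01 µM. The region carried an LSD1 peak scored 3100 and a GFI1 peak scored 3028.

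The next combination-only H3K4me2 peak lay on chromosome 16 from 83725307 to 83727196, with LSD1 at 2356 and GFI1 at 1022. H3K4me3 was combination-only there as well, while H3K4me1 and H3K27ac were called in both treatments. The next 3 with both factors lay on chromosome 17 from 78178275 to 78179173, chromosome 1 from 53605575 to 53607240 and chromosome 16 from 85525642 to 85526556. All 5 had H3K4me2 with MC_2580 alone, and all but the last also had it with RA 1 µM, at scores of 119, 119, 180 and 61.0. In DMSO it was called at the first region on chromosome 16, at 52.1, and at the one on chromosome 1, at 79.7. At the last of the 5, H3K4me1, H3K4me2 and H3K4me3 were all combination-only against RA 0.01 µM. These 3 marks were called there with MC_2580, and neither in DMSO nor with RA 1 µM.

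The highest-scoring combination-only H3K27ac peak, scored 3221, ran over 12477 bases of chromosome 11 from 76057184 to 76069660 and carried LSD1 and GFI1. The other 3 marks were called there in both treatments, and H3K27ac was called elsewhere only with RA 1 µM, at 259. The second, on chromosome 6 from 149593229 to 149603384, had H3K4me1 in both treatments and neither H3K4me2, H3K4me3, LSD1 nor GFI1. Of the combination-only H3K27ac peaks with both factors, 24 were tied at 3100. The widest of them ran over 36034 bases of chromosome 19 from 7618839 to 7654872, with the other 3 marks called in both treatments. H3K27ac was called in this stretch with MC_2580, RA 1 µM and DMSO too, at 1364, 3100 and 2185, so among the 5 treatments only the RA 0.01 µM list lacked it.

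The highest-scoring combination-only H3K4me1 peak lay on chromosome 9 from 136963753 to 136970899, with LSD1 and GFI1. H3K4me2 and H3K4me3 were combination-only there, and H3K27ac was called in both treatments. The second, on chromosome 8 from 125341270 to 125347021, lay in 1 of the 18 regions with all 4 marks found only in the combination. All 4 were also called there with MC_2580, and H3K4me1 with RA 1 µM and in DMSO too. The widest of the 18 ran from 74244439 to 74251506 on chromosome 9, with LSD1 at a score of 3100 and GFI1 at 1045. Another, on chromosome 18 from 22474209 to 22479729, had GFI1 without LSD1, and all 4 of its marks were called with MC_2580 and none in DMSO or with RA 1 µM. A region on chromosome 3 from 72804346 to 72808520 had neither factor, and H3K4me3 was its only mark called with MC_2580 alone.

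Both LSD1 and GFI1 were found at 0.284, 2.43, 2.48 and 0.604% of all RA 0.01-only H3K4me1, H3K4me2, H3K4me3 and H3K27ac peaks. For combination-only peaks these shares were 1.69, 11.5, 19.6 and 8.98%. Of the 8 RA 0.01-only peaks that the same rule names, 4 carried both factors, so the named peaks are not typical of their direction. The highest-scoring H3K4me3 peaks among them, both at 511, lay on chromosome 3 from 184410583 to 184414108 and on chromosome 4 from 124693868 to 124696887, with neither LSD1 nor GFI1, and H3K4me3 was called with RA 1 µM at both. The highest-scoring RA 0.01-only H3K4me2 peak had a score of 431, on chromosome 1 from 111217264 to 111218714, where H3K4me1, H3K4me3 and H3K27ac were called in both treatments and LSD1 and GFI1 were present. The second H3K4me1 peak, on chromosome 6 from 43005279 to 43012129, and the second H3K27ac peak, on chromosome 10 from 134237507 to 134244113, carried both factors too. These 3 peaks were not particular to RA 0.01 µM. H3K4me2 on chromosome 1 was called with MC_2580, RA 1 µM and DMSO, at 2508, 153 and 1810, and H3K27ac on chromosome 10 at 863, 767 and 2454. H3K4me1 on chromosome 6 was called with MC_2580 at 1908 and in DMSO at 3100. The highest-scoring H3K27ac peak, at 3107, covered 12178 bases of chromosome 7 from 156978074 to 156990251 and was also called in DMSO. The highest-scoring RA 0.01-only H3K4me1 peak spanned 22804 bases of chromosome 6 from 15400316 to 15423119, with LSD1 at 528 and GFI1 at 56.2, and the other 3 marks were called in that stretch in both treatments. Of the 3 regions with 3 marks found only with RA 0.01 µM, the widest ran from 144166683 to 144172411 on chromosome 6, with H3K4me1 in both treatments and an LSD1 peak but no GFI1.

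Clusters of differing peaks were sought in 100 kb windows. The largest excess of combination-only H3K27ac peaks lay on chromosome 4 from 40300001 to 40400000, with 14 combination-only and 1 RA 0.01-only peaks. H3K4me1 was called 10 times there in the combination and 4 times with RA 0.01 µM, and the window held 3 LSD1 peaks of the DMSO list and 6 GFI1 peaks. For H3K4me3 the largest excess was on chromosome 5 from 158700001 to 158800000, with 8 peaks in the combination, 2 with RA 0.01 µM, 6 with MC_2580, 4 with RA 1 µM and 2 in DMSO. That window held 4 LSD1 and 5 GFI1 peaks, and H3K27ac was called there 6 times in the combination and 2 times with RA 0.01 µM.

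H3K4me2 had its largest excess in 2 windows, the first on chromosome 16 from 84400001 to 84500000, with 16 peaks in the combination and 7 with RA 0.01 µM, beside 11 with MC_2580, 11 with RA 1 µM and 6 in DMSO. It held 5 LSD1 and 7 GFI1 peaks. H3K4me1 had 3 windows with an excess of 10, the first on chromosome 6 from 30800001 to 30900000, with 19 peaks in the combination, 14 with RA 0.01 µM, 6 LSD1 and 8 GFI1 peaks. The first of the 3 windows with the largest H3K27ac excess for RA 0.01 µM lay on chromosome 1 from 1900001 to 2000000, with 5 peaks in the combination, 21 with RA 0.01 µM, 1 LSD1 peak and no GFI1 peak. For H3K4me3, 5 windows were tied with the largest excess for RA 0.01 µM, the first on chromosome 7 from 61800001 to 61900000. It had 1 peak in the combination, 5 with RA 0.01 µM, 7 with MC_2580, 2 with RA 1 µM and 0 in DMSO, and no peak of the other 3 marks, LSD1 or GFI1.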

How the data were processed

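Per the submitters' processing notes, which give no role or order, the tools were MACS 1.4.1, Bowtie 1.0.1, CASAVA 1.8, bcl2fastq 2 and FastQC in versions 0.10.0 and 0.11.5, and the build was hg18. Each deposited list holds the peaks of 1 library with the authors' score per peak. The LSD1 lists keep 24.7% (DMSO) and 26.1% (MC_2580) of the numbered peaks. Their lowest scores are 234 (DMSO) and 357 (MC_2580), and the filter behind this is not stated in the labels. A start below 0 was set to 0 in 2 combination and 4 RA 0.01 µM H3K27ac peaks. Overlaps of at least 1 base, widths and intervals were computed in SciPy 1.17.1 and NumPy 2.4.6 under Python 3.11.15, with plots from Matplotlib 3.10.9. LSD1 means the DMSO list unless stated. Read counts are not given, so depth is unknown, and the intervals cover counting error only. Groups were taken from the treatment and antibody labels.

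In 2 simulated lists made from 48500 peak positions, all 6000 planted combination-only and 2500 planted RA 0.01-only peaks were recovered. Each position stood far from the next, so this checks the overlap code and not how close peaks of real lists are told apart. Named regions followed a rule: for each mark and direction the 2 highest-scoring differing peaks and the 100 kb window with the largest excess, the 5 regions with the most differing marks on each side, and the 5 highest-scoring combination-only H3K4me2 and H3K27ac peaks with LSD1 and GFI1, with ties broken by width, chromosome and start. Some of these regions are left unprinted. The comparison, the rule and the alternatives were chosen with earlier results of these data known. Alternatives were a minimum score of 100, a 50% reciprocal overlap, joining within 1 kb, lists of equal length, peaks cut to 500 bases on either side of the centre, autosomes only, the MC_2580 list of LSD1 and H3K27ac on H3K4me1 only. A one-sided threshold, peaks with H3K4me1 in both lists, and the classes of LSD1 score were added after seeing the data. No blacklist of artefact-prone regions was applied.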

Additional observations from a re-analysis of the deposited data

How the results depend on the processing

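No paired analysis was possible because the labels give no replicate numbers and each antibody and treatment had 1 library. For the same reason no run leaving out a library was made. The causes of the shifts below were not tested. In each series the marks stand in the order H3K4me1, H3K4me2, H3K4me3, H3K27ac unless named, and shares are combination-only minus RA 0.01-only.

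The log2 ratio of combination-only to RA 0.01-only peaks was 4.68, 2.76, -1.50 and -1.29 with a minimum score of 100, 0.90, 0.77, -0.19 and -0.82 with a 50% reciprocal overlap, 1.06, 0.49, -0.40 and -0.18 with lists of equal length, and 1.05, 1.41, -0.23 and -0.83 with peaks cut to 500 bases on either side of the centre. Joining within 1 kb gave 2.81 for H3K4me1, 1.93 for H3K4me2 and -1.34 for H3K27ac. A one-sided threshold, chosen after seeing the data, gave 5.49 for H3K4me1, 3.69 for H3K4me2 and -1.16 for H3K4me3. The single reversal was H3K27ac on H3K4me1 only, at 0.26.

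The LSD1 difference in percentage points was 3.42, 15.7, 32.0 and 16.7 with a minimum score of 100, and -10.4, -1.10, 13.7 and 8.25 with a 50% reciprocal overlap. With the cut peaks it was -12.8, 3.40 and 15.9 for the 3 methylation marks. It was 3.91 for H3K4me1, 16.0 for H3K4me2 and 9.28 for H3K27ac with lists of equal length, and 5.09, 14.7 and 11.3 for the same marks with the MC_2580 list of LSD1. It was 8.30 for H3K27ac on H3K4me1 only. The GFI1 difference was 2.67, 10.1, 28.0 and 14.2 with a minimum score of 100, -4.76, 4.13, 14.7 and 10.6 with the reciprocal overlap, and -5.77, 8.08, 16.0 and 9.94 with the cut peaks. For GFI1 the minimum score of 100 was set on the GFI1 peaks as well, whose median score is 72.7. These values are thus not directly comparable with the LSD1 ones, where all LSD1 peaks were kept. Lists of equal length gave 8.33 for H3K4me1, 16.7 for H3K4me2 and 13.9 for H3K27ac. For peaks with H3K4me1 in both lists, also chosen after seeing the data, H3K4me2, H3K4me3 and H3K27ac had LSD1 differences of 16.0, 29.4 and 8.27 and GFI1 differences of 15.3, 31.9 and 17.3.

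Width ratios were 1.14, 1.06, 0.922 and 0.988 with a minimum score of 100, and 1.15 for H3K4me1 with joining within 1 kb. Among all alternatives, 6 of 29 log2 ratios, 3 of 24 LSD1 differences, 2 of 20 GFI1 differences and 3 of 8 width ratios stayed within the counting interval. The unknown depth limits what a missing peak shows.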

Other observations

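LSD1 peaks that were called with MC_2580 and overlapped none of the DMSO list numbered 7797. At these, H3K27ac was called only in the combination at 6.21% (5.68 to 6.77%) and only with RA 0.01 µM at 5.82% (5.31 to 6.37%) of sites. H3K4me3 was combination-only at 2.55% (2.21 to 2.93%) and RA 0.01-only at 3.12% (2.74 to 3.53%). H3K4me2 was combination-only at 6.80% and RA 0.01-only at 0.846%, and H3K4me1 at 5.35% and 0.141%. In H3K27ac and H3K4me3 the counting intervals of the 2 directions overlapped.

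Marks also differed together at single LSD1 sites of the DMSO list. Exactly 3 marks were combination-only at 144 of the LSD1 sites with GFI1 and at 19 of those without. All 4 marks were combination-only at 14 sites with GFI1 and at 0 of the 5428 without. No LSD1 site of the DMSO list had 3 or more marks found only with RA 0.01 µM.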
